A study of Mus musculus with 61 samples.

Results

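The citrate cycle and the control of pyruvate dehydrogenase were followed here through 31 genes, chosen by name from the 55011 genes of a count table of mouse skeletal muscle, and read in all 61 RNA sequencing libraries and 22 groups. The list holds 7 genes of pyruvate entry and the pyruvate dehydrogenase complex, 4 pyruvate dehydrogenase kinases, 3 genes of the opposing phosphatases, 12 enzymes of the citrate cycle and 5 genes of the malate-aspartate shuttle. The rule that picked them used gene names and no measured value, though earlier results of these data were known when the list was made. All 31 had enough counts to be tested in each of the 20 comparisons between groups and in each of the 6 tests of a difference between responses.

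The libraries came from 5 experiments. In the first, C57BL/6J wild-type mice were sampled on day 1, 2 or 7 after an acute bout of exercise or stayed sedentary, and quadriceps and tibialis anterior were taken from the same animals, with 3 libraries per group. In the second, quadriceps came from Foxp3-IRES-GFP.hDTR mice, in which the receptor for diphtheria toxin is expressed from the Foxp3 gene, the defining gene of regulatory T cells, so that the toxin removes those cells throughout the body. Carriers (DTR+) and mice without the receptor (DTR-) all received the toxin. The acute experiment had 2 sedentary DTR+ and 3 sedentary DTR- libraries, 3 DTR+ and 3 DTR- libraries on day 1 after exercise, and 2 of each on day 7. In the third, DTR+ and DTR- mice, all given toxin, were trained for 2 weeks or stayed sedentary, with 3 libraries per group. In the fourth, trained DTR+ mice on toxin received an antibody that neutralises interferon-gamma or control IgG, 3 libraries each. In the fifth, sedentary C57BL/6JN mice aged 24 months received one of the same antibodies, 2 libraries each, and the labels do not name the muscle. Sex is not stated for the groups, nor is age outside the last experiment. Outside the wild-type experiment the labels number the replicates without saying that each is a separate animal, so the p-values measure the spread between these libraries. In whole muscle, fewer cells of a type and less RNA per cell cannot be told apart.

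Pyruvate made by glycolysis crosses the inner mitochondrial membrane through the carrier formed by Mpc1 and Mpc2, and the pyruvate dehydrogenase complex turns it into acetyl-CoA. Pdha1 and Pdhb form the E1 decarboxylase of that complex, Dlat is the E2 acetyltransferase, Dld the E3 dehydrogenase and Pdhx the protein that binds E3. The kinases Pdk1, Pdk2, Pdk3 and Pdk4 switch the complex off by phosphorylating E1, and the phosphatases with the catalytic subunits Pdp1 and Pdp2 and the regulatory subunit Pdpr switch it on again. Pdk4 is known in muscle as a gene that rises in fasting and when fatty acids are the main fuel. Acetyl-CoA then enters the citrate cycle through citrate synthase, encoded by Cs.

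Sequencing depth ran over 3359683 to 14445336 counts per library (median 7582737), so that a count of 3 corresponds to 0.208 to 0.893 CPM, the count of a gene scaled to the library total. Foxp3, the gene that carries the receptor, had 0 counts in 41 of the 61 libraries and at most 9 counts, so single libraries say little about its loss. In the acute experiment the DTR- and DTR+ groups held 9 and 0 counts in all at rest, 16 and 2 on day 1, and 0 and 0 on day 7. The loss was not tested. Fast-fibre genes led the muscle markers in every library, with a summed level between 84935 and 148720 CPM. Several libraries stood apart in RNA composition. The sedentary and day 7 DTR+ libraries of the acute experiment had 21.4 to 23.5% and 20.01 to 21.8% of counts on mitochondrially encoded genes, against 7.89 to 11.996% and 8.70 to 8.92% in their DTR- counterparts. The mean exon length of the counted genes, a measure of which transcripts a library favours, ran from 4145 to 18263 bases over all libraries, with the shortest in a sedentary DTR+ library of the acute experiment and the longest in an aged library.

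Per length of transcript, some genes of the cycle, the shuttle and pyruvate dehydrogenase stood at similar high levels, and the kinases and phosphatases were far apart. The cycle enzymes were not all alike. The succinyl-CoA ligase gene Suclg2 (4623 bases of exon) had at most 88.9 CPM in any library. Mdh2 (3562 bases) had a lowest group mean of 968 CPM. Levels were scaled here to TPM, in which each count is divided by the exon length of its gene before it is scaled to the library. In sedentary wild-type quadriceps, mitochondrial malate dehydrogenase Mdh2 had 784 ± 27.8 TPM, its cytosolic partner Mdh1 782 ± 31.7 TPM, Pdha1 579 ± 35.01 TPM, the oxoglutarate dehydrogenase gene Ogdh 560.03 ± 14.8 TPM and Cs 505 ± 31.2 TPM (SD, n = 3). Among the kinases of the same muscle, Pdk2 stood at 734 ± 41.7 TPM, Pdk4 at 169.8 ± 23.3 TPM, Pdk1 at 26.03 ± 5.46 TPM and Pdk3 at 1.56 ± 0.293 TPM. The values of the 3 libraries did not overlap between the kinases, so their order was the same in each sedentary quadriceps library. Among the phosphatase genes Pdp1 had 59.1 ± 8.35 TPM, Pdpr 35.5 ± 7.15 TPM and Pdp2 3.14 ± 1.89 TPM.

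Pdk2 had the highest mean TPM of the kinases in every group. It made up 61.2% to 94.4% of the summed kinase TPM as a mean over the libraries of each of the 22 groups, with the lowest share in the sedentary DTR+ group of the acute experiment. Pdk4 took most of the rest and its share moved with the condition. It was 18.3% in sedentary wild-type quadriceps, 15.7% on day 1, 11.5% on day 2 and 23.3% on day 7. In tibialis anterior the share was 13.6%, 12.1%, 7.81% and 20.5% at the same stages. Both muscles had their lowest mean share on day 2 and their highest on day 7. They came from the same animals, so 1 muscle is not an independent repeat of the other. On day 7, animals 8, 9 and 10 had 18.8%, 28.1% and 22.9% in quadriceps and 12.6%, 27.5% and 21.5% in tibialis anterior. The tests on Pdk4 itself are given below. With training the mean share was 12.5% in trained and 18.3% in sedentary DTR+ muscle, and 6.85% in trained and 14.9% in sedentary DTR- muscle. In trained DTR+ mice it was 4.84% with anti-interferon-gamma and 22.05% with IgG, and 1 IgG library carried most of that difference. In that library Pdk4 made up 50.3% and Pdk2 47.96% of the kinase TPM.

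**Figure D1:**
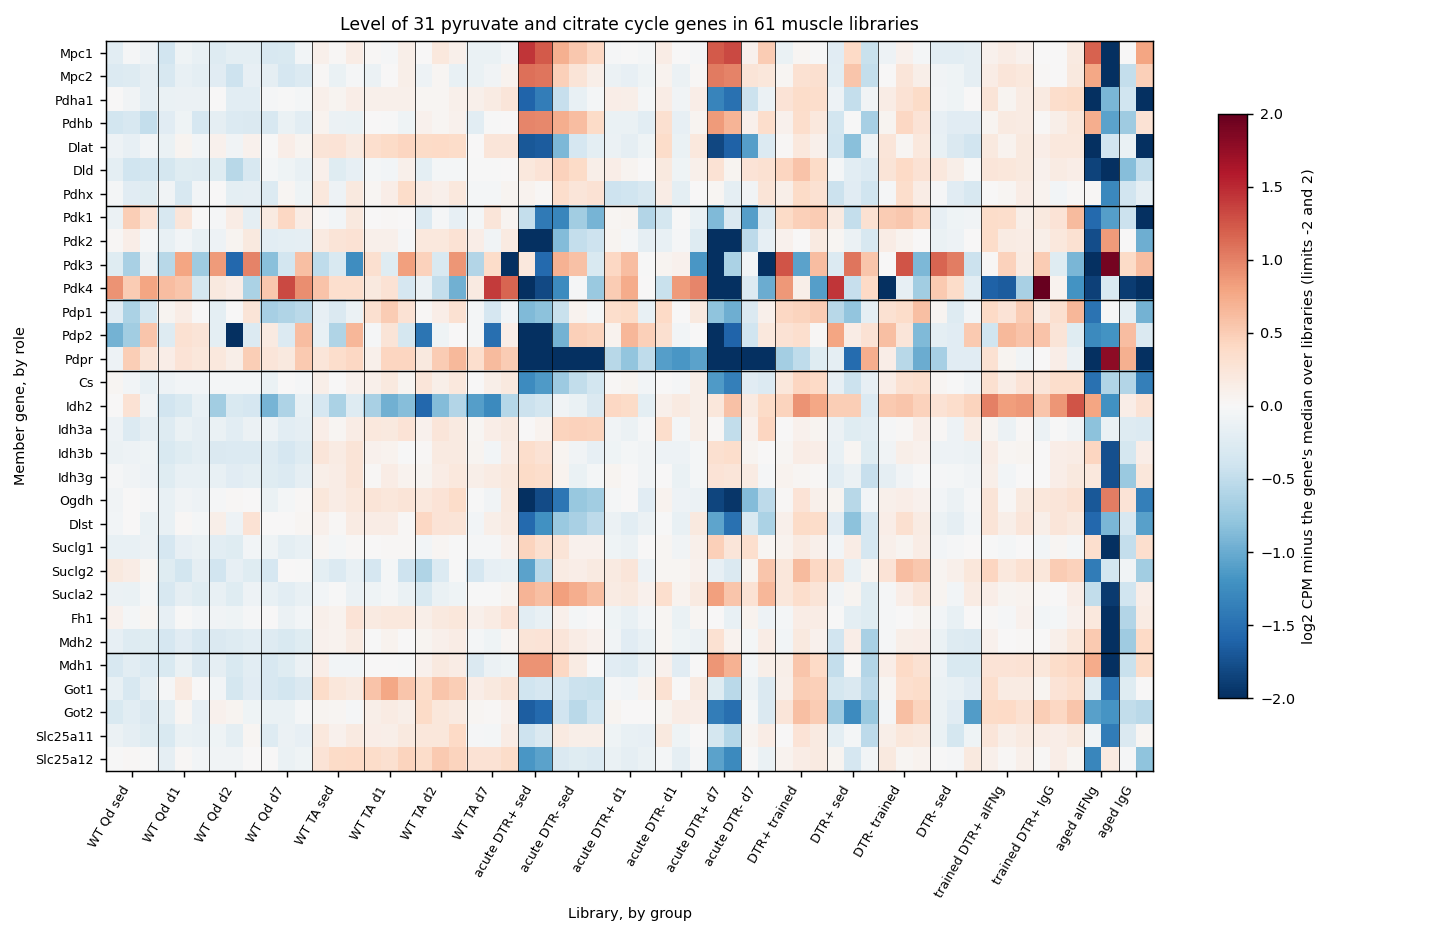
Each cell is the log2 CPM of a member in a library minus that gene's median over the 61 libraries, with genes grouped by role down the page and libraries grouped by condition across it (colours stop at −2 and 2). The sedentary and day 7 DTR+ libraries of the acute experiment and the aged libraries stand out from the rest, with Pdk2, Pdha1, Ogdh and Got2 low and Mpc1 and Mpc2 high in those DTR+ libraries.

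Over all 22 groups, the group with the highest mean CPM exceeded the one with the lowest by a median of 3.03-fold across members. That median was 2.31-fold when the sedentary and day 7 DTR+ groups of the acute experiment were left out. Of the 31 members, 12 were lowest and 8 were highest in one of those 2 groups, and 11 were neither.

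The members sit on many chromosomes. In the mouse build GRCm38, with GENCODE annotation, the genes that carry most of the results below are Got1 (chromosome 19, 43499752-43524605), Got2 (chromosome 8, 95864134-95888547), Mdh2 (chromosome 5, 135778480-135790398), Pdp1 (chromosome 4, 11958184-11966452), Cs (chromosome 10, 128337734-128362479), Dlst (chromosome 12, 85110833-85134845), Idh2 (chromosome 7, 80094846-80115392), Pdk2 (chromosome 11, 95026258-95041354) and Pdk4 (chromosome 6, 5483351-5496309). Counts of each cover the exons of the gene, so no isoform can be told from them.

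At rest the quadriceps had lower levels of the shuttle and of several cycle and pyruvate dehydrogenase genes than the tibialis anterior. Of the 31 members, 9 were lower in quadriceps, 0 were higher and 26 had a log2 fold change below 0. Over all genes tested, 0.716% were called lower and 0.586% higher. The median log2 fold change was −0.21 over the members and 0.0058 over all genes, and the summed CPM of the members was 13632 ± 204 in quadriceps and 15869.7 ± 407 in tibialis anterior (SD, n = 3 each).

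The malate-aspartate shuttle, which carries the reducing power of cytosolic NADH into mitochondria, had 4 of its 5 genes lower in quadriceps. Cytosolic aspartate aminotransferase Got1 had 376, 334 and 371 CPM in the quadriceps of animals 5, 6 and 7, against 538, 487 and 476 CPM in their tibialis anterior. The muscles did not overlap, and the difference was −0.48 ± 0.089 on the log2 scale (SE) with an adjusted p of 0.00363 by edgeR's quasi-likelihood test. The aspartate-glutamate carrier Slc25a12 had 649, 661 and 649 CPM in quadriceps and 787, 849.7 and 857 CPM in tibialis anterior (log2 fold change −0.35 ± 0.067, adjusted p = 0.00422). Every quadriceps library was again below every tibialis anterior library. The oxoglutarate carrier Slc25a11 (log2 fold change −0.35 ± 0.078, adjusted p = 0.0161) and Mdh1 (log2 fold change −0.29 ± 0.072, adjusted p = 0.0395) were lower as well. The mitochondrial aminotransferase Got2 had a log2 fold change of −0.30 ± 0.082 and did not pass (adjusted p = 0.0701). DESeq2 called 12 members lower, Got2 (adjusted p = 0.018), Idh3g (adjusted p = 0.00977) and Ogdh (adjusted p = 0.0184) in addition.

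In the cycle itself, 3 of 12 enzymes were lower in quadriceps. Mdh2, which closes the cycle by making oxaloacetate, had 1064, 993 and 1008 CPM in quadriceps and 1262, 1245 and 1334 CPM in tibialis anterior (log2 fold change −0.33 ± 0.059, adjusted p = 0.00201). Idh3b (log2 fold change −0.32 ± 0.064, adjusted p = 0.00694) and Idh3a (log2 fold change −0.30 ± 0.068, adjusted p = 0.0181) encode subunits of the NAD-dependent isocitrate dehydrogenase, and the third subunit Idh3g had a value of −0.25 ± 0.067, adjusted p = 0.0565. The differences among these subunits were thus of like size, and only Idh3g missed the threshold among the 3. Cs had 1137, 1066 and 1000.4 CPM in quadriceps and 1201, 1115 and 1175 CPM in tibialis anterior (log2 fold change −0.13 ± 0.067, adjusted p = 0.521), and Ogdh had 1088, 1146 and 1120.5 CPM and 1345, 1273 and 1323 CPM in the same order (log2 fold change −0.24 ± 0.062, adjusted p = 0.0548). Neither passed the test. The NADP-dependent isocitrate dehydrogenase Idh2 leaned the other way without passing, with 262, 319 and 249 CPM in quadriceps and 208, 169 and 219 CPM in tibialis anterior (log2 fold change 0.47 ± 0.19, adjusted p = 0.368), and it was called without the filter on low counts (adjusted p = 0.0051).

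All 7 genes of pyruvate entry and the pyruvate dehydrogenase complex had log2 fold changes below 0 in quadriceps, and 2 passed. Pdhb had 341, 353 and 317 CPM in quadriceps and 462, 408 and 403 CPM in tibialis anterior (log2 fold change −0.34 ± 0.081, adjusted p = 0.0301), and Dlat had 252, 241 and 259 CPM and 324, 327 and 304 CPM (log2 fold change −0.35 ± 0.082, adjusted p = 0.0254). For both genes the 3 quadriceps libraries lay below the 3 tibialis anterior libraries. Pdha1 had 839, 794 and 739.8 CPM in quadriceps and 892, 863 and 912 CPM in tibialis anterior (log2 fold change −0.17 ± 0.068, adjusted p = 0.33). No kinase and no phosphatase gene passed, among them Pdk4 with 244, 186 and 225 CPM in quadriceps and 194, 166 and 165 CPM in tibialis anterior (log2 fold change 0.32 ± 0.27, adjusted p = 0.794).

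**Figure D2:**
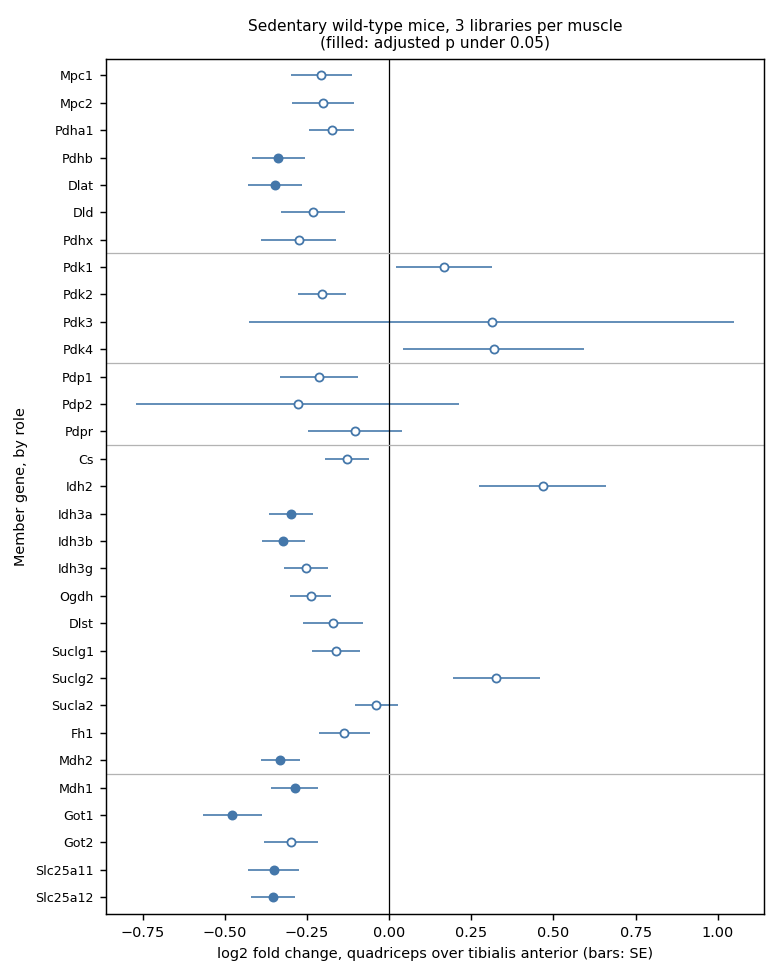
Points give the log2 fold change of each member in sedentary wild-type mice, quadriceps over tibialis anterior, with bars of 1 SE; filled points passed an adjusted p of 0.05. The 9 filled points all lie left of 0, the lowest being Got1 at −0.48, and Idh2 at 0.47 lies farthest to the right.

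Of 41 further genes of the same pathways that could be tested, 5 were lower in quadriceps and 1 was higher. The lower genes included the succinate dehydrogenase subunits Sdha (−0.25 ± 0.053, adjusted p = 0.0122) and Sdhb (−0.31 ± 0.07, adjusted p = 0.0178), mitochondrial malic enzyme Me3 (−0.52 ± 0.10, adjusted p = 0.00493) and the lactate exporter Slc16a3 (−0.57 ± 0.12, adjusted p = 0.0122), all as log2 fold changes. The higher gene was Pck1, which makes phosphoenolpyruvate from oxaloacetate, at 3.05 ± 0.78, adjusted p = 0.0476. None of the 13 listed regulators of oxidative genes, among them Ppargc1a, Esrra and Nrf1, passed (2 had an unadjusted p under 0.05).

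The muscles also differed in fibre and fat markers. Of 9 slow-fibre genes, 8 were higher in quadriceps, with a summed level of 835 to 1494 CPM there and 247 to 258 CPM in tibialis anterior. The 5 adipocyte genes summed to 153 to 227 CPM in quadriceps and 46.2 to 76.8 CPM in tibialis anterior, with 2 called higher, and no gene of either list was at 0 in these libraries. The fast-fibre sum was 140095 to 146297 CPM and 136701 to 143543 CPM in the same order. Within that list Myh1 was called lower in quadriceps (log2 fold change −1.24, adjusted p = 2.02e-09) and Actn3 higher (0.27, adjusted p = 0.00515). The fibro-adipogenic Col1a1 was called lower (−0.81, adjusted p = 0.032). The endothelial sum was 180 to 228 CPM in quadriceps and 237 to 288 CPM in tibialis anterior. The mitochondrial share was 4.75 to 5.03% and 5.62 to 6.13%. The part of these markers and of that share in the member differences was not tested. Leaving out 1 library at a time left 3 to 8 members lower, with 4 called without quadriceps of animal 6 or 7, 4 without tibialis anterior of animal 5 and 3 without that of animal 7. Mdh2, Got1 and Slc25a12 passed each time. With the animal as a block, 11 members were lower, Ogdh among them (adjusted p = 0.0367).

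Got1 and Pdhb are 2 of the lower members with a motif of a factor that is known to act on mitochondrial genes close to their start. Promoters were read from RefSeq on build GRCm38.p6 as 250 bases before to 50 bases after each start, and 29 of the 31 members had an entry; Pdp1 and Idh3a were not matched. The core element of the estrogen-related receptors (AAGGTCA, either strand) occurred in Got1 and Ogdh, and in 5.38% of all 27025 genes with an entry. The core of the NRF1 site (GCATGCG, either strand) occurred in Pdhb and Ogdh, and in 4.01% of genes. For each motif, 2 of 29 members is near the share over all genes. Ogdh, which held both, did not pass the main test. The windows of 30 bases below show the match in capitals, 5′ to 3′ on the strand of the gene, from chr19:43524826-43524855 (minus strand) for Got1 and chr14:8173150-8173179 (minus strand) for Pdhb, where the motif lies on the opposite strand. The first base of the match was 245 bases before the start in Got1 and 176 bases before it in Pdhb.
Got1: cccagAAGGTCAggaggttgtcctctgggg
Pdhb: gccgttggctaCGCATGCagaggcggggcc

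After acute exercise in wild-type mice no member passed the test on any day in either muscle. In quadriceps 0.582% of all genes were called on day 1, 0.299% on day 2 and 0.214% on day 7, and in tibialis anterior 0.0552%, 0.063% and 0.0158%. At an unadjusted p under 0.05 there were 5, 6 and 7 members in quadriceps and 4, 8 and 3 in tibialis anterior on the 3 days. The median log2 fold change over the members was −0.0011, −0.0038 and 0.028 in quadriceps and 0.046, 0.061 and 0.05 in tibialis anterior, and over all genes it was −0.0056, −0.0073 and −0.0014 and −0.00075, −0.002 and −0.0016. DESeq2 called 1, 2 and 1 members in quadriceps on days 1, 2 and 7, and 2 in tibialis anterior on day 1. The differences between the responses of the 2 muscles were tested as well and no member passed on day 1, 2 or 7 (0 members each at an unadjusted p under 0.05, and 0 by DESeq2), where 0.0434%, 0.00724% and 0.0796% of all genes did.

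Pdp1, the muscle phosphatase that reactivates pyruvate dehydrogenase, and Got1 had the smallest p-values on day 1. In quadriceps Pdp1 had 109.6, 82.5 and 100.3 CPM at rest, 133, 143 and 129 CPM on day 1, 112, 129 and 154 CPM on day 2 and 80.99, 84.5 and 87.96 CPM on day 7. In tibialis anterior it had 115, 105 and 118 CPM at rest, 160.3, 182 and 156 CPM on day 1, 130.1, 141 and 158 CPM on day 2 and 124, 102 and 123 CPM on day 7. The 3 day 1 libraries lay above the 3 resting libraries in both muscles, which came from the same animals. The log2 fold change on day 1 was 0.49 ± 0.12, adjusted p = 0.121 in quadriceps and 0.60 ± 0.11, adjusted p = 0.0633 in tibialis anterior. DESeq2 called it in both muscles on that day, so that its place relative to the threshold rests on the tool. Got1 had 538, 487 and 476 CPM in resting tibialis anterior, 618, 712 and 616 CPM on day 1, 537, 611 and 591 CPM on day 2 and 458, 478 and 501 CPM on day 7, and its day 1 value of 0.41 ± 0.082, adjusted p = 0.0697 missed the threshold, again with no overlap. DESeq2 called Got1 there (adjusted p = 0.000678). In quadriceps the day 1 value of Got1 was 0.29 ± 0.10, adjusted p = 0.293.

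Pdk4 was low on day 2 and high on day 7 without passing. In quadriceps it had 244, 186 and 225 CPM at rest, 201, 191 and 103 CPM on day 1, 150.1, 143 and 84.8 CPM on day 2 and 191, 326 and 250.01 CPM on day 7. In tibialis anterior it had 194, 166 and 165 CPM at rest, 149, 160.2 and 104 CPM on day 1, 121, 93.6 and 66.96 CPM on day 2 and 148, 346 and 292 CPM on day 7. The day 2 libraries lay below the resting ones in both muscles, while day 7 libraries overlapped with rest. The muscles came from the same animals, and the animals of day 2 and of day 7 ranked alike in both. The day 2 log2 fold change was −0.77 ± 0.23, adjusted p = 0.236 in quadriceps and −0.85 ± 0.26, adjusted p = 0.35 in tibialis anterior.

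Idh2 was lower than at rest on each day in the mean of both muscles, also without passing. It had 262, 319 and 249 CPM in resting quadriceps, 201, 212 and 237 CPM on day 1, 163, 211 and 208 CPM on day 2 and 138, 171 and 236 CPM on day 7. The log2 fold change on day 7 was −0.58 ± 0.15, adjusted p = 0.165 in quadriceps and −0.49 ± 0.20, adjusted p = 0.825 in tibialis anterior. Leaving out the quadriceps library of animal 10 on day 7 brought Idh2 past the threshold there, and DESeq2 called it (adjusted p = 0.0281). Pdha1, Cs, Ogdh and Mdh2 had small differences from rest, with log2 fold changes on day 1 of −0.025, 0.00012, −0.057 and −0.058 in quadriceps and 0.053, 0.08, 0.086 and −0.041 in tibialis anterior.

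**Figure D3:**
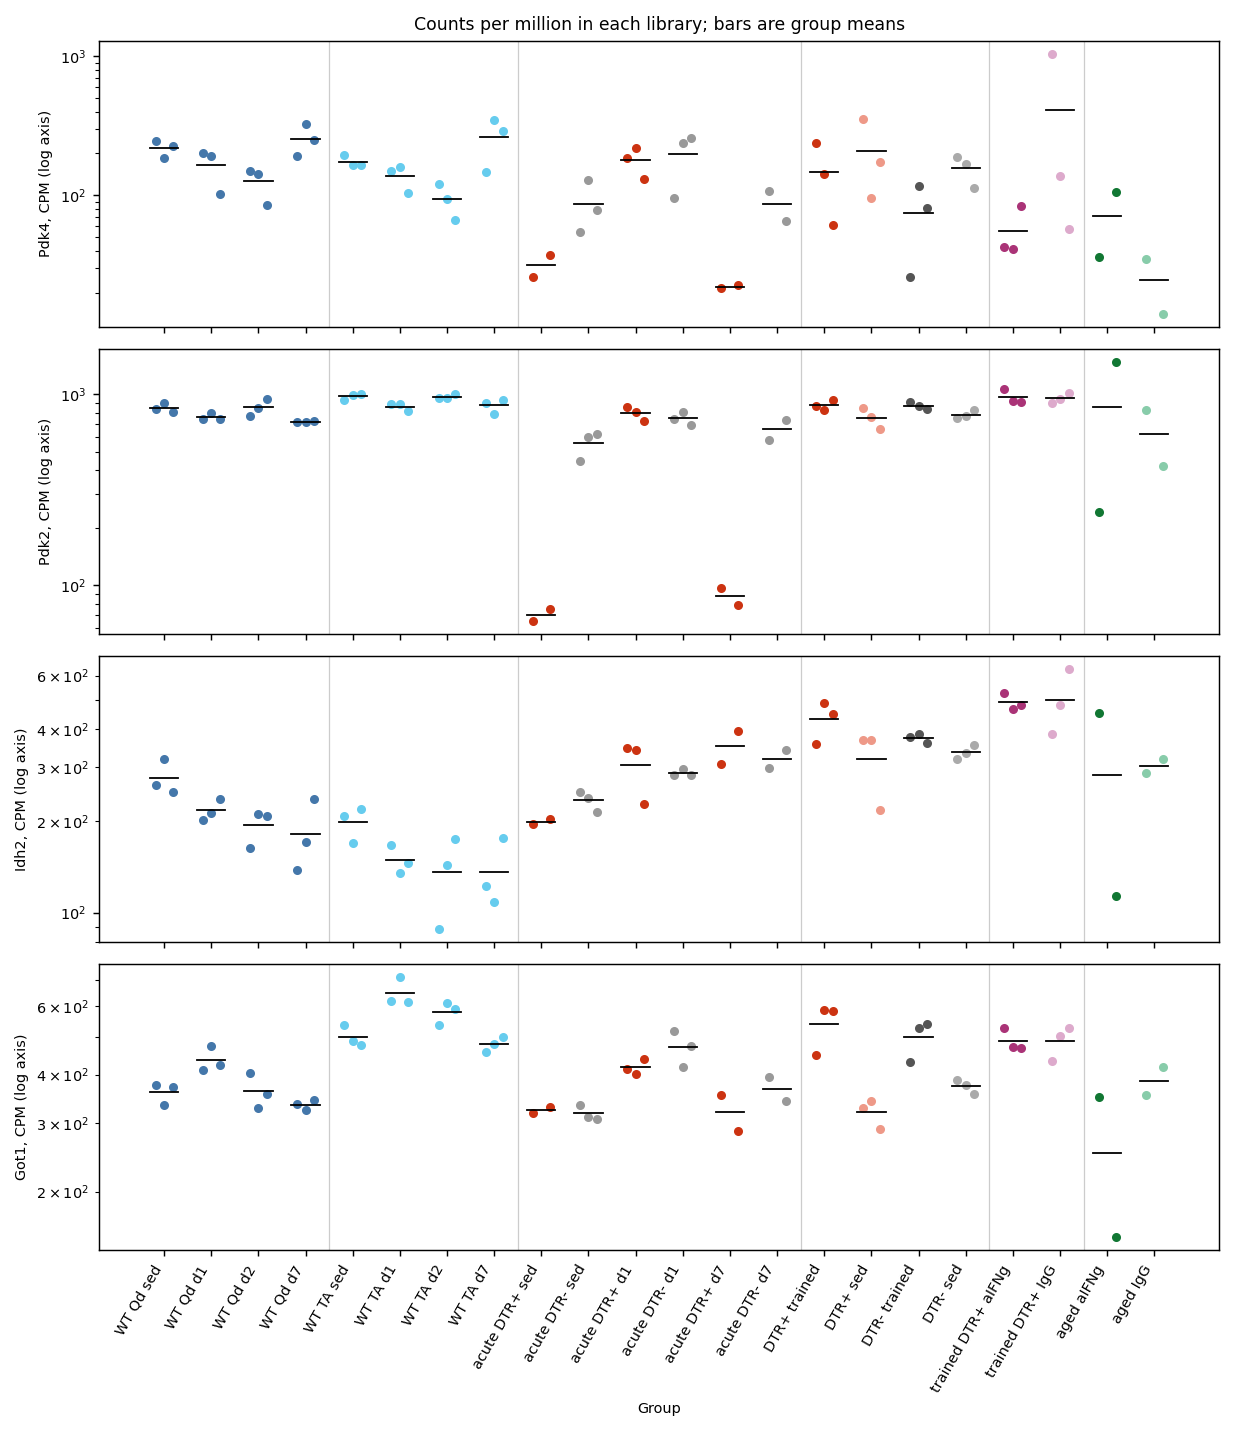
CPM of Pdk4, Pdk2, Idh2 and Got1 in every library (points, log axes), with a bar at each group mean and the groups of the 5 experiments side by side. Pdk2 in the sedentary and day 7 DTR+ groups of the acute experiment is at most 96.3 CPM and at least 241 CPM in every other library, and 1 IgG library has 1044 CPM of Pdk4.

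Training for 2 weeks was accompanied by higher levels of 5 members in DTR+ mice, spread over the shuttle, the cycle and the phosphatase. Got2, Got1, Dlst, Cs and Pdp1 rose in trained DTR+ muscle relative to sedentary DTR+ muscle and none of the 31 fell, where 0.978% of all genes were called higher and 1.23% lower. The median log2 fold change was 0.30 over the members and −0.037 over all genes, and 26 of 31 values were above 0. In CPM, 17 members had all trained DTR+ libraries above all sedentary ones and 0 had them all below, where 9.47% and 6.21% of all genes did. The summed CPM of the members was 16993 ± 1077 in trained DTR+ muscle and 12833 ± 766 in sedentary DTR+ muscle (SD, n = 3 each).

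Got2, which in the shuttle turns oxaloacetate and glutamate into aspartate and oxoglutarate inside mitochondria, moved most. It had 377, 487 and 455 CPM in trained DTR+ libraries 1, 2 and 3, against 194, 133 and 191 CPM in the sedentary DTR+ libraries. All trained libraries were above all sedentary ones, with a log2 fold change 1.32 ± 0.23, adjusted p = 0.00376. Got1 had 449.9, 586 and 582 CPM in trained and 328, 341 and 290.2 CPM in sedentary DTR+ muscle (log2 fold change 0.70 ± 0.17, adjusted p = 0.0384). The other shuttle genes were not called, Mdh1 having a value of 0.62 ± 0.20, adjusted p = 0.132.

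Pdp1 had 170.3, 175 and 183 CPM in trained DTR+ muscle and 87.7, 74.5 and 113 CPM in sedentary DTR+ muscle (log2 fold change 0.92 ± 0.17, adjusted p = 0.00631), again with no overlap. Dlst, the E2 subunit of the oxoglutarate dehydrogenase complex, had 504, 614 and 605 CPM in trained and 402, 264 and 369.98 CPM in sedentary DTR+ muscle (log2 fold change 0.71 ± 0.16, adjusted p = 0.0189). Cs had 1299.7, 1492 and 1457 CPM in trained and 991, 816 and 986 CPM in sedentary DTR+ muscle (log2 fold change 0.57 ± 0.14, adjusted p = 0.0412). The trained libraries lay above the sedentary ones for both genes, and sedentary library 2 was the lowest for each. Within the pyruvate dehydrogenase complex no gene passed, the nearest being Dld (0.59 ± 0.16, adjusted p = 0.0542) and Pdha1 with 1012, 1072 and 1063 CPM in trained and 781, 598 and 795 CPM in sedentary muscle (0.50 ± 0.14, adjusted p = 0.076). Ogdh (0.27 ± 0.15, adjusted p = 0.462), Mdh2 (0.27 ± 0.20, adjusted p = 0.626) and Idh2 (0.38 ± 0.21, adjusted p = 0.454) did not pass either.

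In DTR- mice no member passed after training, where 0.103% of all genes did, and 7 members had an unadjusted p under 0.05 (DESeq2 called 0). By CPM, 22 members had all 3 trained DTR- libraries above the 3 sedentary DTR- libraries and 0 had them below, against 10.9% and 4.85% of all genes. The median log2 fold change was 0.15 over the members and 0.0057 over all genes. Got2 had 315, 483 and 434 CPM in trained DTR- muscle and 294, 272 and 147 CPM in sedentary DTR- muscle (log2 fold change 0.74 ± 0.23, adjusted p = 0.587). Pdk1 had 88.9, 91.5 and 84.4 CPM in trained and 56.2, 58.9 and 60.1 CPM in sedentary DTR- muscle (log2 fold change 0.54 ± 0.17, adjusted p = 0.664). Both genes had their trained libraries above the sedentary ones, but neither passed the test. Pdk4 had 25.7, 117 and 81.1 CPM in trained and 188, 168 and 113 CPM in sedentary DTR- muscle (log2 fold change −1.12 ± 0.48, adjusted p = 0.934), with an overlap between 117 and 113 CPM. Beside these values, trained DTR- libraries had lower fast-fibre sums (108355 to 123066 CPM trained, 128467 to 142099 CPM sedentary, with Myh1 called higher) and higher sums of the 7 macrophage genes (258 to 339 and 177 to 193 CPM) and the 4 endothelial genes (267 to 313 and 202 to 210.2 CPM), with no gene of these 2 lists called. None of the 3 sums overlapped, and their part in the member values was not tested.

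Whether training acted differently in the presence or absence of the receptor was tested directly, and no member passed, where 0.27% of all genes did and 0 members had an unadjusted p under 0.05 (DESeq2 called 0). The difference of the responses was 0.59 ± 0.32, adjusted p = 0.806 for Got2 and 0.46 ± 0.24, adjusted p = 0.79 for Pdp1 on the log2 scale. No member passed between DTR+ and DTR- libraries at rest, where 0.0477% of all genes were called, or after training, where 0.89% were, with 1 member at an unadjusted p under 0.05 and 0 called by DESeq2 in each. After training that member was Pdk4, with 239, 142 and 61.1 CPM in trained DTR+ and 25.7, 117 and 81.1 CPM in trained DTR- muscle (log2 fold change 1.04 ± 0.48, adjusted p = 0.605).

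**Figure D4:**
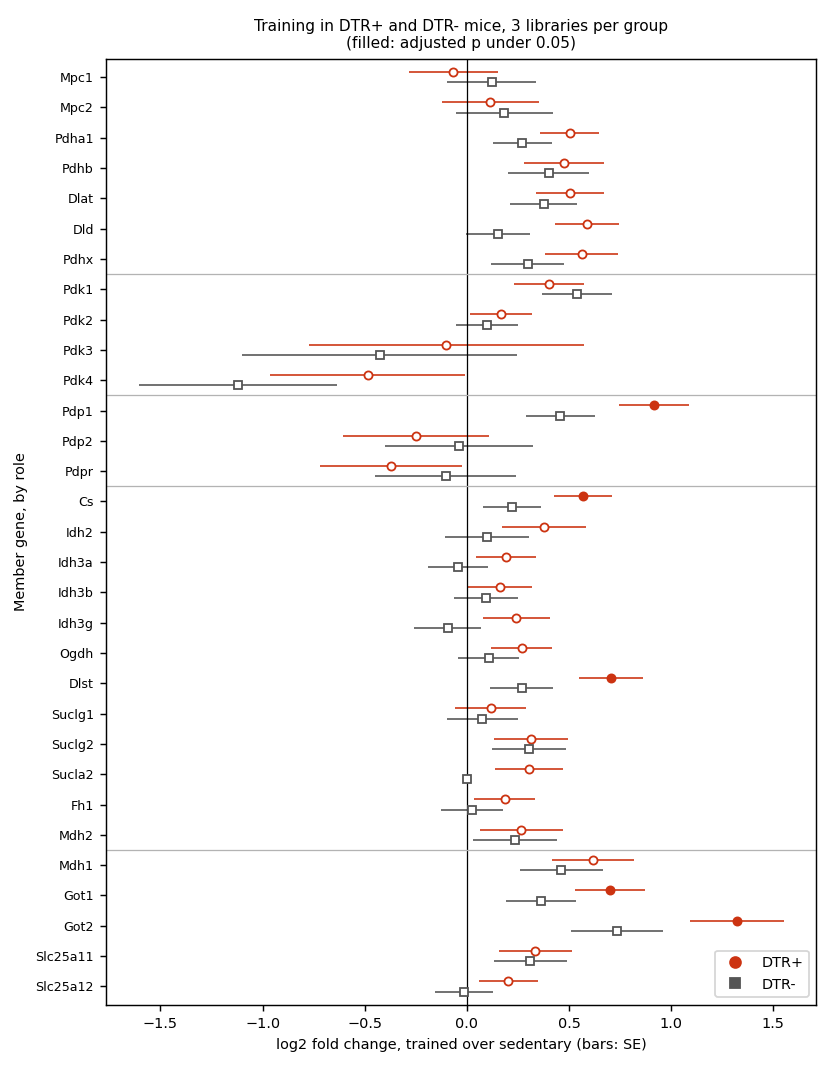
Log2 fold change of each member in trained over sedentary muscle with bars of 1 SE, for DTR+ (circles) and DTR- mice (squares); filled symbols passed an adjusted p of 0.05. Filled symbols are seen only for DTR+ mice, at Got2, Pdp1, Dlst, Got1 and Cs, and the test of the difference between the genotypes was passed by 0 members.

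Of 39 further pathway genes tested, 3 rose with training in DTR+ mice, namely the cytosolic citrate lyase Acly (1.24 ± 0.28, adjusted p = 0.0244), Bckdha of the branched-chain keto acid dehydrogenase (0.89 ± 0.23, adjusted p = 0.0425) and the alanine aminotransferase Gpt (1.56 ± 0.20, adjusted p = 0.00035), as log2 fold changes. In DTR- mice 1 rose, which was Acly (1.65 ± 0.28, adjusted p = 0.0209). None of the 13 regulators passed in either genotype, with 1 and 0 of them at an unadjusted p under 0.05 in DTR+ and DTR- mice.

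The composition of the DTR+ libraries differed between trained and sedentary muscle too. The fast-fibre genes summed to 109836 to 119530 CPM in trained and 119163 to 145006 CPM in sedentary DTR+ muscle, with Myh1 and Myh2 called higher and Myh4 lower. Of the other lists, the endothelial Pecam1 (0.74 ± 0.17, adjusted p = 0.0291) and the slow-fibre Casq2 (1.47 ± 0.25, adjusted p = 0.00304) were called higher and the adipocyte Plin1 (−2.77 ± 0.63, adjusted p = 0.0231) lower, as log2 fold changes. The 8 genes of T and NK cells summed to 5.78 to 12.8 CPM and 1.79 to 5.30 CPM, and the 7 macrophage genes to 309 to 420.2 CPM and 279 to 311 CPM, in the same order, with no gene of either list called or at 0 in all 6 libraries. Sedentary DTR+ library 3 had the fewest counts of all, 3359683, and sedentary library 2 had a mean exon length of 5005 bases against 11142 in library 3. The part of these features in the result was not tested. Without sedentary library 2 there were 14 members called, and without sedentary library 1 or 3 there were 3. Without trained library 3 there were 3 as well, and without trained library 2 there was 1. Got2 passed in each of these. With only the DTR+ groups in the fit, 1 member passed and DESeq2 called 8.

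Neutralising interferon-gamma in trained DTR+ mice was accompanied by no called member relative to IgG, where 1.35% of all genes were called. By DESeq2 the count was 0 as well, and 1 member had an unadjusted p under 0.05. That member was Pdk4, with 42.5, 41.2 and 83.3 CPM in the anti-interferon-gamma libraries, against 1044, 137 and 57.1 CPM in the IgG libraries (log2 fold change −2.91 ± 0.74, adjusted p = 0.0839). The groups overlapped, since IgG library 3 lay below the highest treated library, and IgG library 1 stood far above all others. Without IgG library 1 the log2 fold change was −0.79 (adjusted p = 0.419), and without IgG library 3 it was −3.43 (adjusted p = 0.000259). The other 30 members ranged between log2 fold changes of −0.14 and 0.31.

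Pdha1 had 1000.04, 867 and 931 CPM with anti-interferon-gamma and 945, 1059.9 and 1086 CPM with IgG (log2 fold change −0.14 ± 0.086, adjusted p = 0.632). Cs had 1385, 1229 and 1329.6 CPM and 1301, 1416 and 1413 CPM in the same order (log2 fold change −0.067 ± 0.079, adjusted p = 0.863), and Idh2 had 526, 467 and 479 CPM and 386, 481 and 629 CPM (log2 fold change −0.023 ± 0.13, adjusted p = 0.978). Each of these pairs overlapped. The log2 fold change was −0.10 for Ogdh, −0.07 for Mdh2 and −0.00039 for Got1. None of 40 further pathway genes and none of the 13 regulators passed (7 and 2 at an unadjusted p under 0.05). Beside these values, 2 of 9 slow-fibre genes, Myh7 and Tnni1, were lower with anti-interferon-gamma, the list summing to 608 to 1197 CPM there and 1353 to 1562 CPM with IgG.

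In the acute experiment the sedentary DTR+ libraries differed from the sedentary DTR- libraries in 18 of the 31 members, 8 higher and 10 lower. Over all genes, 12.1% were called higher and 14.5% lower, so a large share of the transcriptome differed between these libraries. The median log2 fold change was −0.093 over the members and −0.056 over all genes. These are the libraries with high mitochondrial share described above. Their mean exon length of counts was 4145 to 4161 bases in DTR+ and 4243 to 4418 bases in DTR- libraries, and the called members had a median exon length of 3492 bases where higher and 4855 bases where lower. With mitochondrially encoded genes left out of the counts, 19 members were called, 8 higher and 11 lower. The scaling of the test shifted the fold changes of all genes alike by 0.31 on the log2 scale from plain CPM, and members are described relative to that shift. After removal of the trend of fold change with exon length and GC content, 8 of 8 higher and 7 of 10 lower members were still called, without Cs, Ogdh and Got2. Fast-fibre genes divided too, with 6 of 10 called higher and Atp2a1 and Mylk2 lower, and their sum was 84935 to 87396 CPM in DTR+ and 90849.6 to 114778 CPM in DTR- libraries. Of the other marker lists, the slow-fibre Tnnt1 and Tpm3 and the macrophage Mrc1 were called higher. The macrophage Csf1r and C1qa, the fibro-adipogenic Pi16 and the adipocyte Cidec were called lower. The part of these markers in the result was not tested.

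Pdk2 and Pdp2 had the lowest fold changes of the members. Pdk2 had 64.6 and 75.4 CPM in sedentary DTR+ libraries, against 449, 594 and 620.2 CPM in sedentary DTR- libraries (log2 fold change −2.67 ± 0.18, adjusted p = 2.98e-08). Pdp2 had 1.36 and 0.249 CPM and 3.92, 10.5 and 10.3 CPM in the same order (log2 fold change −3.01 ± 0.63, adjusted p = 0.00137), with the higher DTR+ library still below the lowest DTR- library and only 2 counts in the lower one, so that the size of the fold is loosely set. Pdk4 had 26.1 and 37.3 CPM in DTR+ and 54.7, 128 and 77.8 CPM in DTR- libraries (log2 fold change −1.14 ± 0.35, adjusted p = 0.021). Pyruvate entry divided, with the carrier genes higher and parts of the complex lower. Mpc1 had 412 and 357 CPM in DTR+ and 251, 222 and 204 CPM in DTR- libraries (log2 fold change 1.08 ± 0.16, adjusted p = 4.18e-05), and Mpc2 had 611 and 598 CPM and 395, 339.9 and 308 CPM (log2 fold change 1.10 ± 0.14, adjusted p = 9.91e-06). Of the 2 subunits of E1, Pdha1 was lower with 275 and 320.4 CPM in DTR+ and 608, 752 and 810.1 CPM in DTR- libraries (log2 fold change −0.97 ± 0.15, adjusted p = 8.35e-05), and Pdhb was higher (log2 fold change 0.69 ± 0.16, adjusted p = 0.00272). Neither of the E1 genes overlapped between the genotypes.

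In the cycle, Idh3b (0.68 ± 0.12, adjusted p = 0.000266), Idh3g (0.71 ± 0.13, adjusted p = 0.000314), the succinyl-CoA ligase subunit Suclg1 (0.55 ± 0.14, adjusted p = 0.00554) and Mdh2 (0.41 ± 0.13, adjusted p = 0.0273) were higher in sedentary DTR+ libraries, and Ogdh (−0.75 ± 0.19, adjusted p = 0.00528), Suclg2 (−0.63 ± 0.19, adjusted p = 0.0178) and Cs (−0.36 ± 0.13, adjusted p = 0.0436) were lower, as log2 fold changes. In the shuttle Mdh1 was higher, with 1647 and 1653 CPM in DTR+ and 1180.5, 992 and 889 CPM in DTR- libraries (log2 fold change 0.998 ± 0.15, adjusted p = 5.36e-05). Got2 (−0.86 ± 0.14, adjusted p = 0.000101) and Slc25a12 (−0.54 ± 0.13, adjusted p = 0.00355) were lower, and Got1 had a value of 0.34 ± 0.14, adjusted p = 0.0929. Idh2 had 195 and 203 CPM in DTR+ and 249, 238 and 214 CPM in DTR- libraries (log2 fold change 0.074 ± 0.17, adjusted p = 0.789), the sign of which turned with the scaling. Opposite directions thus occurred within single enzymes, the subunits of E1 and of succinyl-CoA ligase among them.

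On day 1 after exercise no member passed between the genotypes, and 0% of all genes were called (1 member at an unadjusted p under 0.05, 0 members by DESeq2). Pdk2 had 857, 806 and 724 CPM in DTR+ and 741, 809 and 691 CPM in DTR- libraries (log2 fold change 0.11 ± 0.14, adjusted p = 1), and Mpc1 had 149.6, 151 and 148 CPM and 169.96, 153 and 149.96 CPM (log2 fold change −0.05 ± 0.14, adjusted p = 1). These day 1 values overlapped between the genotypes. The mitochondrial share was 5.53% to 6.31% in DTR+ and 5.44% to 6.56% in DTR- libraries on that day.

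On day 7 the difference was again present, with 20 members called, 9 higher and 11 lower in DTR+ libraries, where 11.3% and 14% of all genes were. Pdk2 had 96.3 and 78.6 CPM in DTR+ and 576 and 736 CPM in DTR- libraries (log2 fold change −2.62 ± 0.19, adjusted p = 6.47e-08), and Mpc1 had 358 and 382 CPM and 162 and 217 CPM (log2 fold change 1.25 ± 0.18, adjusted p = 3.81e-05). Pdpr had 2.11 and 0.260 CPM and 13.2 and 5.02 CPM in the same order (log2 fold change −2.52 ± 0.60, adjusted p = 0.00362). In all 3 genes the genotypes did not overlap, with 2 libraries each, and the lower Pdpr value rests on 2 counts. Pdk4 was lower in DTR+ libraries (−1.68 ± 0.39, adjusted p = 0.00304), as were Pdha1 (−0.85 ± 0.16, adjusted p = 0.00057), Cs (−0.71 ± 0.14, adjusted p = 0.00074), Ogdh (−0.92 ± 0.20, adjusted p = 0.00208) and Got2 (−0.99 ± 0.15, adjusted p = 5.65e-05), and Mdh1 (1.04 ± 0.17, adjusted p = 0.000122) and Mdh2 (0.41 ± 0.15, adjusted p = 0.0458) were higher, as log2 fold changes. With only the groups compared in the fit, 12 members were called. The mean exon length of counts was 4309 to 4321 bases in DTR+ and 4628 to 6293 bases in DTR- libraries. With mitochondrially encoded genes left out, 19 members were called, 8 higher and 11 lower. The 8 T and NK cell genes summed to 19.9 to 66.02 CPM in DTR+ and 4.01 to 7.25 CPM in DTR- muscle, and the 7 macrophage genes to 289 to 522 CPM and 206 to 246 CPM, with 4 macrophage genes called higher and C1qa (−1.08 ± 0.34, adjusted p = 0.0225) lower. The 4 endothelial genes summed to 80.3 to 92.2 CPM in DTR+ and 113 to 129 CPM in DTR- muscle, with Pecam1 called lower, and the 7 fibro-adipogenic genes to 1222 to 1439 CPM and 1499 to 1766 CPM, with Col1a1 and Pi16 called lower. The neutrophil gene S100a8 was lower (−3.44 ± 1.02, adjusted p = 0.0169), with 4.24 and 46.99 CPM in the DTR- libraries. The neutrophil list summed to 3.45 and 10.01 CPM in DTR+ and 86.5 and 6.91 CPM in DTR- libraries, so its sums overlapped and 1 DTR- library stood far above the rest. Of 3 blood genes 2 were called higher, Hba-a1 and Hbb-bs, though both overlapped between the genotypes. The blood genes summed to 170 and 766 CPM in DTR+ and 268 and 110 CPM in DTR- libraries. Fast-fibre genes divided as at rest, with Myh4, Myh1, Tnnt3 and Tnnc2 called higher and Atp2a1 and Mylk2 lower, and Myh1 overlapped between the genotypes. The slow-fibre Tnni1 and Tpm3 were called higher and the adipocyte Cidec lower. The part of these marker lists in the result was not tested.

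**Figure D5:**
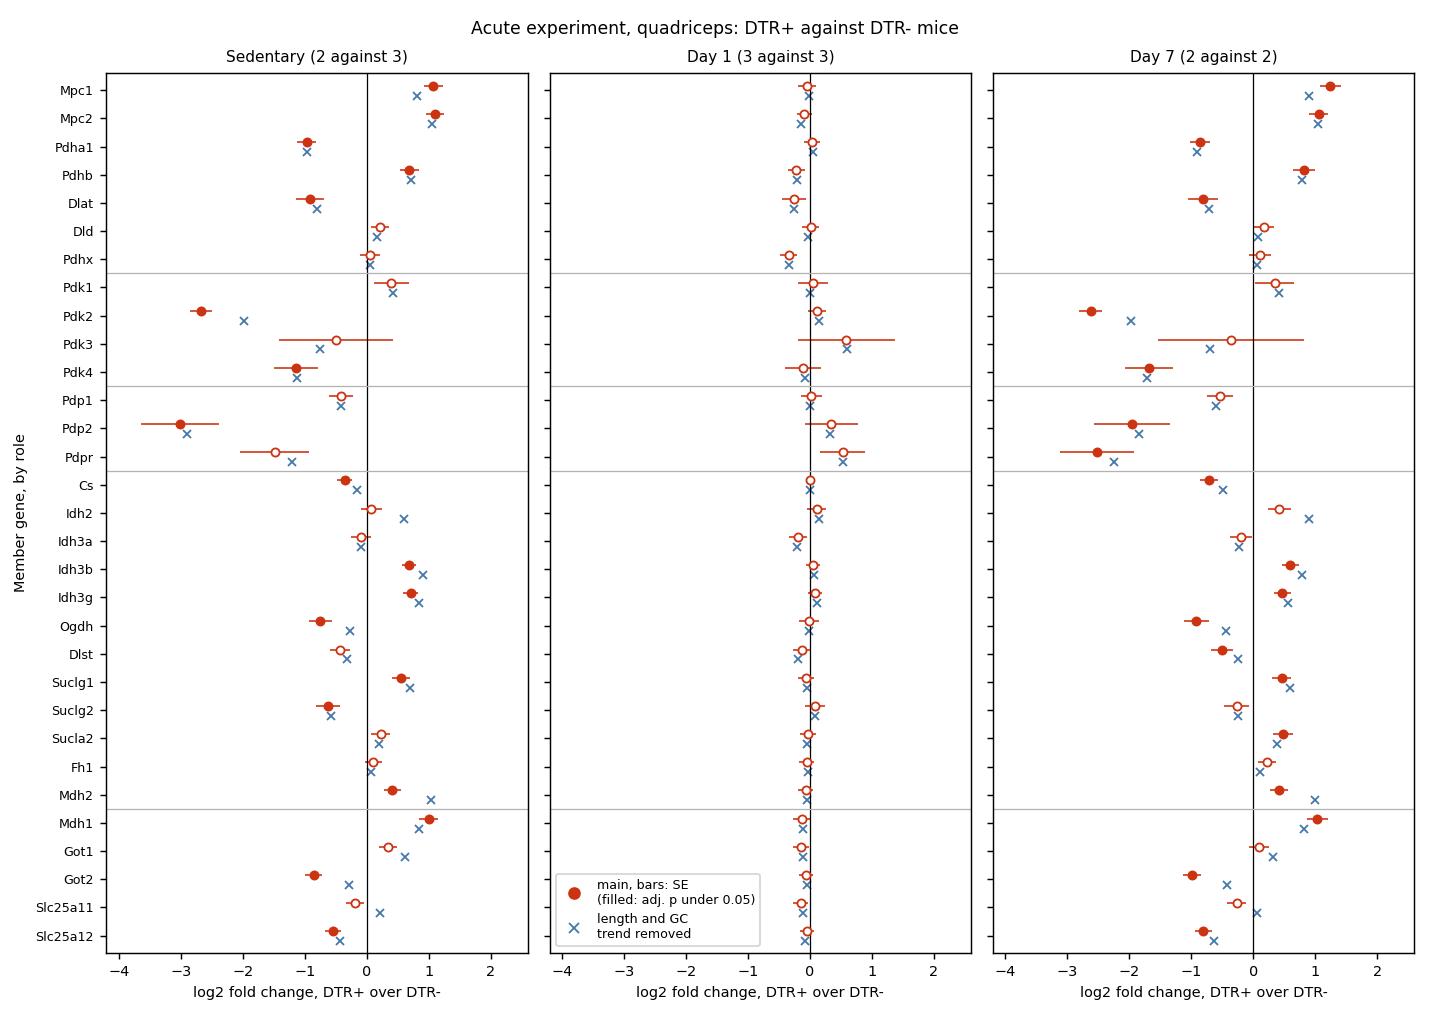
Log2 fold change of each member in DTR+ over DTR- quadriceps at rest, on day 1 and on day 7 after acute exercise (circles with bars of 1 SE, filled where the adjusted p was under 0.05), with the value after removal of the length and GC trend as a cross. At rest 18 circles are filled, on day 1 none, and on day 7 20, and Pdk2 lies at −2.67, 0.11 and −2.62.

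Of the 29 members with a promoter entry, 4 held an E-box (CACGTG, which reads the same on both strands), against 8.09% of all genes. They were Pdk2, Pdp2, Pdpr and Ogdh. Of these, Pdpr passed as lower in DTR+ than in DTR- libraries on day 7 and did not pass at rest. Pdk4, Pdha1, Cs and Got2, which were called lower in DTR+ libraries both at rest and on day 7, held no E-box. The windows of 30 bases come from chr11:95041480-95041509 (minus strand) for Pdk2, chr8:104591241-104591270 (plus strand) for Pdp2 and chr8:111094561-111094590 (plus strand) for Pdpr on GRCm38.p6, with the E-box in capitals 126, 219 and 172 bases before the start. The FOXO site GTAAACA was found in no member, Pdk4 included, and in 4.05% of all genes.
Pdk2: ctcgaggagagcCACGTGtcgaagcgcaag
Pdp2: ggggaagagcccCACGTGacgacctactgg
Pdpr: cccaaacaagcgCACGTGcgggccggtccg

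On day 1 relative to rest, 12 members were higher and 13 lower in DTR+ libraries, with the pyruvate carrier among the lower and kinase and phosphatase genes among the higher, where 24.3% and 18.1% of all genes were. Pdk2 (2.97 ± 0.18, adjusted p = 5.68e-10), Pdp2 (3.09 ± 0.63, adjusted p = 0.000518), Pdpr (4.13 ± 0.55, adjusted p = 4.44e-06), Pdp1 (0.52 ± 0.19, adjusted p = 0.0365) and Pdk4 (1.95 ± 0.36, adjusted p = 0.000204) rose as log2 fold changes, and Mpc1 (−1.90 ± 0.16, adjusted p = 1.05e-08), Mpc2 (−1.74 ± 0.14, adjusted p = 6.55e-09) and Mdh1 (−1.63 ± 0.15, adjusted p = 3.55e-08) fell. After removal of the length and GC trend, 7 of 12 higher and 13 of 13 lower members were still called. The sedentary libraries of this comparison are those with the high mitochondrial share. With mitochondrially encoded genes left out, 12 members were called higher and 13 lower. The mean exon length of counts was 6390 to 6523 bases on day 1 and 4145 to 4161 bases at rest. Genes with a count numbered 23450 to 26524 on day 1 and 14701 to 14745 at rest. These library features ran with the day, so their part and that of exercise cannot be told apart. The scaling of the test shifted the fold changes of all genes in this comparison alike by −0.53 on the log2 scale from plain CPM. Over all comparisons, the only called member whose direction differed in plain CPM was fumarase, Fh1, on this day, with an adjusted p of 0.00866 at −0.45 and a mean of 369.6 CPM on day 1 and 349.9 CPM at rest.

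In DTR- mice, 3 members were higher and 10 lower on day 1 than at rest, where 8.16% and 8.24% of all genes were. The count of higher members was near the share over all genes. The scaling of the test shifted the fold changes of all genes alike by −0.25 on the log2 scale from plain CPM, and the 13 calls are relative to that shift. In plain CPM, 11 members had all day 1 libraries above all resting ones and 8 had them below, against 31.2% and 8.85% of all genes. The count above was near the share over all genes, and the count below was over that share. None of the 13 called members changed direction on that scale. The median log2 fold change was −0.28 over the members and 0.086 over all genes. Pdk4 had 96.04, 237 and 257 CPM on day 1 and 54.7, 128 and 77.8 CPM at rest (log2 fold change 0.92 ± 0.30, adjusted p = 0.0407), and the lowest day 1 library lay among the resting ones. Pdpr (2.11 ± 0.40, adjusted p = 0.00117) and Ogdh (0.63 ± 0.16, adjusted p = 0.0119) were the other members that rose. Among the lower members, the succinyl-CoA ligase subunit Sucla2 had 939.6, 781 and 842 CPM on day 1 and 1317, 1226 and 1124 CPM at rest (log2 fold change −0.77 ± 0.13, adjusted p = 0.000681). Mpc1 (−0.77 ± 0.14, adjusted p = 0.00111), Mpc2 (−0.54 ± 0.13, adjusted p = 0.00575), Pdhb (−0.75 ± 0.14, adjusted p = 0.00133), Dld (−0.51 ± 0.13, adjusted p = 0.0126), Pdhx (−0.56 ± 0.14, adjusted p = 0.0102), Idh3a (−0.54 ± 0.14, adjusted p = 0.0139), Suclg1 (−0.37 ± 0.13, adjusted p = 0.0477), Mdh2 (−0.46 ± 0.12, adjusted p = 0.0126) and Mdh1 (−0.50 ± 0.14, adjusted p = 0.0152) fell as well. The mean exon length of counts was 5953 to 6579 bases on day 1 and 4243 to 4418 bases at rest. Genes with a count numbered 21211 to 26596 on day 1 and 16508 to 16799 at rest, and the mitochondrial share was 5.44 to 6.56% and 7.89 to 11.996%. As in DTR+ mice, these library features ran with the day, so their part and that of exercise cannot be told apart. Removing the length and GC trend left 10 of 10 lower and 1 of 3 higher members called. Without sedentary library 1 or day 1 library 2 there were 7 calls. The fast-fibre sum was 117944 to 128311 CPM on day 1 and 90849.6 to 114778 CPM at rest, the endothelial sum 147 to 158 and 81.1 to 119 CPM, and the fibro-adipogenic sum 1239 to 1499.7 and 1515 to 1907 CPM, without overlap, and their part was not tested.

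The day 1 response differed between the genotypes in 13 members, 6 with a higher and 7 with a lower response in DTR+ mice, where 8.8% and 6.54% of all genes were called. After removal of the length and GC trend 3 of 6 and 7 of 7 were still called. Without sedentary DTR+ library 2 there were 8. No member changed from rest to day 7 in DTR+ mice (1.01% of all genes, 3 members at an unadjusted p under 0.05) or in DTR- mice (0.00702%, 4 members), or differed between those responses (0.0772%, 0 members). DESeq2 called 1 member in DTR+ mice and 0 in the other comparisons of day 7 with rest.

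Other pathway genes followed in the acute experiment, with 5 of 40 higher and 16 lower in sedentary DTR+ than in sedentary DTR- libraries, where 12.1% and 14.5% of all genes were, so the higher count was near the share over all genes. Slc16a3 (−3.38 ± 0.26, adjusted p = 6.96e-08) and the anaplerotic pyruvate carboxylase Pcx (−2.08 ± 0.26, adjusted p = 9.47e-06) were lower, and Sdhb (1.02 ± 0.14, adjusted p = 1.78e-05) and the lactate dehydrogenase subunit Ldhb (0.98 ± 0.18, adjusted p = 0.000443) were higher, as log2 fold changes. Among 13 regulators, Esrra (−0.997 ± 0.23, adjusted p = 0.00337) and Nrf1 (−1.08 ± 0.26, adjusted p = 0.00404) were lower and Hif1a (1.05 ± 0.32, adjusted p = 0.0194) was higher. On day 1 relative to rest in DTR- mice, 1 of 40 pathway genes was higher and 8 were lower, against 8.16% and 8.24% of all genes. The lower ones included lactate dehydrogenase Ldha (−1.01 ± 0.14, adjusted p = 0.000109) and Sdhb (−0.66 ± 0.12, adjusted p = 0.00127), and the regulators Ppara (1.99 ± 0.53, adjusted p = 0.0144) and Hif1a (1.59 ± 0.28, adjusted p = 0.000859) were higher.

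In aged mice no member was called between anti-interferon-gamma and IgG, and 0% of all genes were (0 members at an unadjusted p under 0.05, 0 by DESeq2). Pdk2 had 241 and 1483 CPM in the 2 anti-interferon-gamma libraries and 825 and 419 CPM in the 2 IgG libraries, and Pdpr had 2.39 and 191 CPM and 90.5 and 4.34 CPM. In both genes 1 library of each group was high and 1 low, so that the groups overlapped widely. The mean exon length of counts was 4225 and 18263 bases with anti-interferon-gamma and 9540.1 and 4731 bases with IgG, in the same library order, and its part was not tested. Pdk4 had 35.8 and 106 CPM with anti-interferon-gamma and 35.01 and 14.1 CPM with IgG (log2 fold change 1.61 ± 0.97, adjusted p = 1).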

How the data were processed

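Whole-muscle RNA was sequenced in 61 libraries, made from 2 ng of RNA each by an ultra-low-input protocol per the labels' protocols. The deposited values are whole-number counts of reads per gene. Reads were aligned with STAR 2.7.3a to build mm10 and counted with featureCounts, per the submitters' processing notes. No source used here states the strand setting or annotation of the counting, so reads of overlapping antisense genes cannot be told apart.

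Each experiment was fitted alone. Genes passing filterByExpr (minimum count 10, minimum total 15) were scaled by TMM and tested with edgeR 4.0.16 quasi-likelihood in R 4.3.3, two-sided, with Benjamini-Hochberg adjustment over all genes tested and a threshold of 0.05. Calls are made at that threshold, and the error of a log2 fold change is its SE. CPM is counts over the library total. TPM used GENCODE vM21 exon lengths. A count of 3 was taken as the floor, for counting error only. The steps were tested on simulated data.

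Alternatives were DESeq2 1.42.0, RLE factors, no filter, only the groups compared, mitochondrially encoded genes left out, removal of the length and GC trend, the replicate number as a block, and leaving out each library. Over all genes that passed the filter, same-numbered libraries did not deviate together (correlations of −0.156 to 0.0999 outside the aged mice). The 2 wild-type muscles are paired by animal number in the labels. A single gene can still follow the animal, and Pdk4 ranked the day 7 animals alike in both muscles.

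Values per library are given for called members, at most 12 a comparison by smallest p, and for Pdk4, Pdha1, Cs, Idh2, Ogdh, Mdh2 and Got1 whatever their p, and for up to 6 called genes of 42 others, of which 1 is not reported here. The members and lists were chosen with earlier results of these data known. Markers of slow and fast fibres, fibro-adipogenic cells, white and brown adipocytes, macrophages, T and NK cells, neutrophils, endothelium, satellite cells and blood were summed in every library.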

Additional observations from a re-analysis of the deposited data

Results flagged for a closer look

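In 13 members the change on day 1 after acute exercise differed between DTR+ and DTR- mice by a direct test of that difference. On the log2 scale the response was higher in DTR+ mice for Pdk2 by 2.79, Pdp2 by 3.35, Pdpr by 2.01, Pdha1 by 0.996, Got2 by 0.79 and Ogdh by 0.74. The difference of the responses was negative for Mpc2 at −1.19, Mdh1 at −1.13, Mpc1 at −1.13, Pdhb at −0.91, Idh3b at −0.64, Idh3g at −0.63 and Suclg1 at −0.61. All 13 rest on the same 2 sedentary DTR+ libraries, whose mitochondrial share of counts was 21.4 to 23.5% against 7.89 to 11.996% in the sedentary DTR- libraries. With mitochondrially encoded genes left out, 14 members differed, 7 with a higher and 7 with a lower response. Groups of 2 or 3 libraries were too small to be searched for a library far from the others.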

How the results depend on the processing

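Counts of called members moved under a few alternatives. Leaving out mitochondrially encoded genes gave 19 and 19 members between genotypes at rest and on day 7, 25 and 14 on day 1 relative to rest in DTR+ and DTR- mice, 14 for the difference of those responses, and the counts of the other comparisons as they were. Without the filter on low counts, wild-type quadriceps gave 1, 2 and 1 members on days 1, 2 and 7, tibialis anterior gave 2 on each day, and 1 each was called on day 7 relative to rest in DTR+ mice, after training in DTR- mice, between trained DTR+ and DTR- mice and with anti-interferon-gamma. DESeq2 gave 12 for quadriceps against tibialis anterior, 1, 2 and 1 in quadriceps after exercise, 2 in tibialis anterior on day 1, 1 on day 7 in DTR+ mice and 8 after training in DTR+ mice. With only the groups compared, 12 members differed between DTR+ and DTR- mice on day 7 and 1 after training in DTR+ mice. Leaving out 1 library gave 3 to 8 members for quadriceps against tibialis anterior, 12 to 19 between sedentary genotypes, 14 to 17 on day 7, 22 to 25 on day 1 relative to rest in DTR+ mice and 7 to 13 in DTR- mice. It gave 8 to 14 for the difference of those responses, 1 to 14 after training in DTR+ mice, and 0 to 1 for quadriceps on day 7, DTR+ mice on day 7 and anti-interferon-gamma.

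The animal as a block gave 11 members for quadriceps against tibialis anterior. In the other experiments the replicate number pairs nothing by the labels; with it as a block Cs was lost after training (adjusted p = 0.0736), leaving 4 members. In the aged mice the numbers correlated at −0.652, and a block with the numbers crossed, chosen after seeing the data, called 0 members.

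Removing the length and GC trend turned 2 values of day 1 against rest in DTR+ mice, Idh2 to −0.50 (−0.54 with the block) and Slc25a12 to −0.015 (−0.049 with the block), against 0.08 and 0.44; the cause was not tested beyond that construction. Among single members, 103 called results kept their side in 1186 alternatives, lost it in 196 and turned in 2, and 158 named results without a call did not change in 2085, moved in 130, gained a call in 43 and turned in 2; a value too near 0 to keep an SE counts as moved under every alternative. Groups of 2 or 3 libraries limit what could be called, and Pdk3 and Pdp2 lay near the depth limit.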

Other observations

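On day 7 of the acute experiment, 6 of 40 pathway genes outside the members were higher and 13 lower in DTR+ than in DTR- libraries, where 11.3% and 14% of all genes were, so the higher count was near the share over all genes. Of the 13 regulators, the coactivator Ppargc1a (−1.38 ± 0.25, adjusted p = 0.000428) and the estrogen-related receptors Esrra (−1.45 ± 0.25, adjusted p = 0.000255) and Esrrg (−1.69 ± 0.52, adjusted p = 0.0213) were lower on day 7, as was Nrf1 (−0.80 ± 0.27, adjusted p = 0.0361), all as log2 fold changes. On day 1 relative to rest in DTR+ libraries, Ppargc1a (0.64 ± 0.23, adjusted p = 0.0274), Ppargc1b (1.63 ± 0.50, adjusted p = 0.0125), Esrrg (1.97 ± 0.50, adjusted p = 0.0033), Ppara (1.94 ± 0.63, adjusted p = 0.0181) and Nrf1 (1.13 ± 0.26, adjusted p = 0.00145) were higher and Foxo1 (−0.96 ± 0.34, adjusted p = 0.0305) was lower. Ppargc1a and the estrogen-related receptors are known to drive genes of oxidative metabolism. The day 7 and the sedentary DTR+ libraries in these comparisons are those with the high mitochondrial share, and the day 1 DTR+ libraries had 5.53 to 6.31%.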
